A study of Mus musculus with 6 samples.

Results

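The MHC class I antigen presentation pathway was examined through 10 genes: H2-K1, H2-D1, B2m, Tap1, Tap2, Tapbp, Psmb8, Psmb9, Psmb10 and Nlrc5. They were taken by name, as the probe sets whose platform annotation holds exactly 1 gene symbol equal to a member, which gave 27 probe sets out of 45037 that were not controls. For each gene the probe set of highest mean signal was the main one. The samples were LSK cells, a bone marrow fraction sorted for low lineage markers with Sca-1 and c-Kit on the surface, which holds stem cells and multipotent progenitors, from F1 mice of a C57BL/6 by FVB/n cross. Ercc1-deficient mice (3 arrays) carried the -/d genotype, a null allele over a truncated one; the ERCC1 protein works with XPF as a DNA repair endonuclease. Ercc1-proficient litter mates (3 arrays) had the genotype +/+ in litters 1 and 2 and +/d, with 1 truncated allele, in litter 3. Litter 1 was 22 weeks old and litters 2 and 3 were 20 weeks old. The comparison asks how reduced Ercc1 function changes gene expression in these cells. The parental strains differ in their H2 haplotype, all F1 mice carry both, and how each class I probe set binds each allele was not examined.

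Class I molecules show peptides from inside the cell to CD8 T cells and are read by natural killer cells. The proteasome cuts proteins, the TAP1-TAP2 transporter moves the peptides into the endoplasmic reticulum, tapasin (Tapbp) bridges the transporter to an empty class I heavy chain (H2-K1 or H2-D1), and beta-2 microglobulin (B2m) is the light chain of every classical class I molecule. Under interferon the catalytic subunits Psmb8, Psmb9 and Psmb10 take the places of Psmb5, Psmb6 and Psmb7, and NLRC5 is the transactivator that drives most of these genes together.

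The signals of all 10 genes were lower in Ercc1-deficient LSK cells by the fitted difference, and 9 of the 10, all but Tapbp, were lower in every one of the 3 litters. Among all 10879 genes tested 53.2% had a lower fitted difference and 17.9% were lower in all 3 litters. Differences are given as deficient minus proficient in log2(signal + 30). The median log2 difference of the members was -0.56, against -0.02 for all genes tested, and it was -0.40, -0.68 and -0.57 in litters 1, 2 and 3, where all genes had 0.00, -0.05 and 0.00. No member passed by itself at an adjusted p of 0.05. In a limma fit with litter as block, adjusted over all 22519 probe sets tested, the main probe sets had adjusted p-values between 0.121 and 0.664, where 0.786% of all probe sets passed, 0.493% as lower and 0.293% as higher. Of the 10, 6 had an unadjusted p under 0.05 in that fit, as had 7.41% of all genes in the lower direction. In the same limma fit without a litter term 0 of 10 passed, as did 0% of all probe sets, and 0 of 10 had an unadjusted p under 0.05, against 1.9% of all probe sets in the lower direction. The members were chosen with earlier results of these arrays known and share regulators and arrays, so these counts are a description. All 10 main probe sets passed the filter on mean signal (mean log2 value at or above the median over all probe sets). In bulk samples fewer cells of a type and less RNA per cell cannot be told apart.

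**Figure D1:**
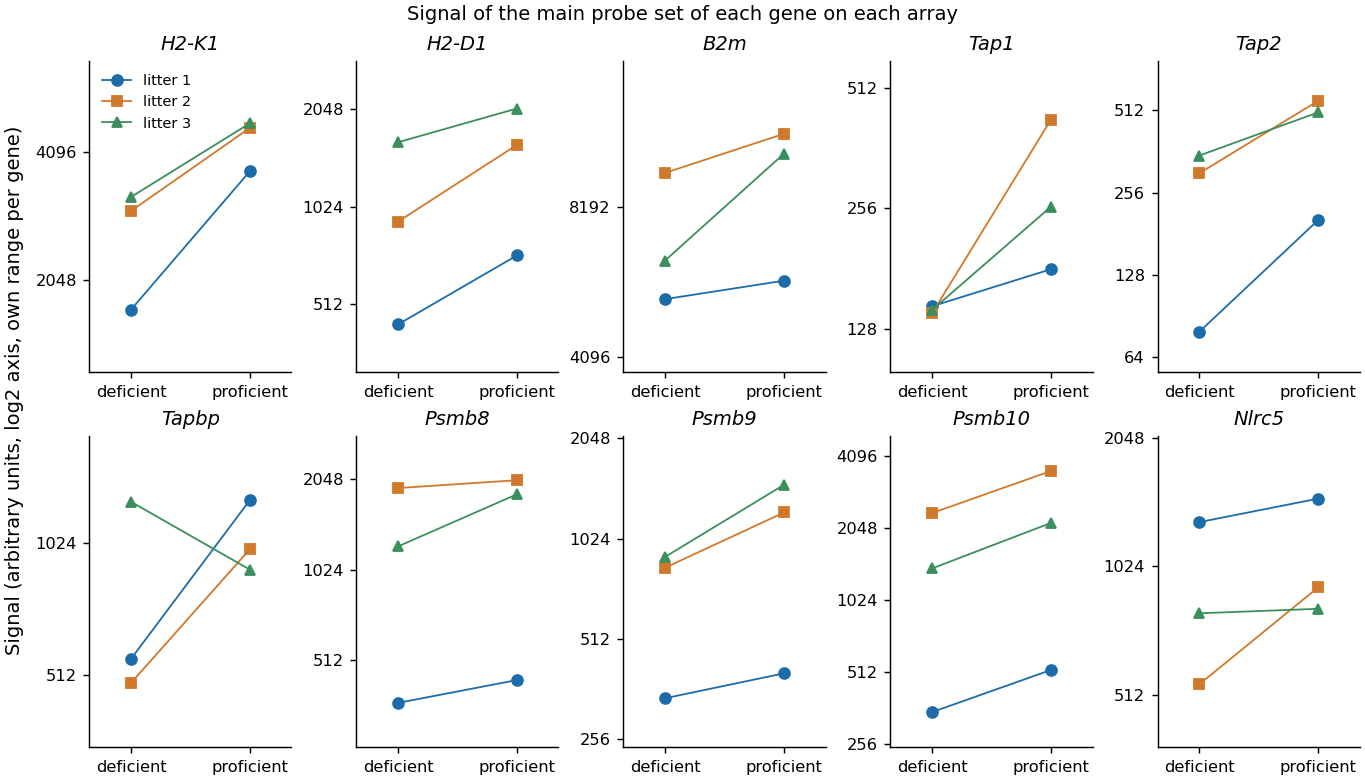
Signal of the main probe set of each gene (arbitrary units, log2 axis with its own range per gene) in Ercc1-deficient and Ercc1-proficient arrays, 1 point per array and a line joining litter mates. Lines run upward to the proficient array in all litters for 9 genes, the exception being Tapbp in litter 3, where the deficient array stood at 1273 and the proficient array at 891.

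On each array between 52.3% and 58.6% of signals lay at a floor of 30, the lowest value of the table. The hybridisation spike-ins were brighter in the deficient array than in its litter mate by 1.11, 0.10 and 0.18 on the log2 scale in litters 1, 2 and 3. Ercc1 measured 79.9, 34.5 and 44.9 in deficient arrays against 128, 244 and 176 in proficient arrays by its brightest probe set (log2 difference -1.36, adjusted p = 0.0159 in the litter-blocked limma fit). The granulocyte granule and calprotectin genes Camp, Ngp, S100a8 and S100a9 rose in deficient cells in that fit, while the macrophage markers Csf1r, Cd68 and Adgre1 had log2 differences of 0.03, 0.10 and 0.12 with mixed litters. Of the 9 tested markers of mature granulocytes and macrophages 5 were higher in all 3 litters, against 12.6% of all genes. The median of the 9 was 1.90 on the log2 scale, or 0.51 without litter 3. With litter as a block 4 of the 9 passed as higher, where 0.293% of all probe sets did. Without a litter term, or without the filter on low signal, no probe set on the array passed. The summed signal of the list of 10 ranged from 5825 to 81690 in deficient arrays and from 687 to 18765 in proficient arrays. Of the 5 tested LSK markers Kit, Cd34, Flt3 and Procr were lower in all 3 litters, as were 17.9% of all genes. Flt3 and Procr passed with litter as a block, where 0.493% of all probe sets passed as lower. Slamf1 was higher by the fitted difference of 0.36, and lower in litter 3; Ly6a had no probe set of its own. The natural killer and granule gene Nkg7 measured 594, 1211 and 1191 in deficient arrays against 252, 653 and 721 in proficient arrays and did not pass (adjusted p = 0.0586 in the litter-blocked limma fit). Of the B cell markers Cd79a was at the floor on all arrays, of the T cell markers Cd3g and Cd4, and of the dendritic cell markers Itgax, Siglech and Cd209a. No tested B cell (3), T and NK cell (4), erythroid (3), megakaryocyte (4) or endothelial and stromal (2) marker passed; log2 differences in these lists ran from -0.74 for Ebf1 to 0.90 for Nkg7, with 0.84 for the platelet gene Pf4. The 3′ minus 5′ log2 difference of the Actb controls was 4.70, 4.20 and 3.27 in deficient arrays against 3.85, 4.34 and 3.64 in proficient arrays. The part of granulocyte content and of RNA quality in the results on class I genes was not tested.

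The heavy chain and light chain genes come first. Their upstream sequences are shown because H2-K1, H2-D1 and B2m are known to answer to the same kinds of factor and were lower together. The 250 bases before the annotated start are from RefSeq (GRCm38.p6), 5′ to 3′ on the gene's strand. Capitals mark matches on either strand to an interferon response element (a longer consensus, or the shorter GAANNGAAA), the NF-kappaB consensus, the CCAAT box (CCAAT), the core of the cyclic AMP response element (TGACG) and the interferon-gamma activated site (TTCNNNGAA).
H2-K1, chr17:34000334-34000583, minus strand, the more downstream of 2 annotated starts: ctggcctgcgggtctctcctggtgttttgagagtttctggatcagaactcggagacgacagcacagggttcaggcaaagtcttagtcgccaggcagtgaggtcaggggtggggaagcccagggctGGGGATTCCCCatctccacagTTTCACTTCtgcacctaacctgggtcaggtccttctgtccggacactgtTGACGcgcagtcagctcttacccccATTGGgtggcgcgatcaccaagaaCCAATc
H2-D1, chr17:35262844-35263093, plus strand: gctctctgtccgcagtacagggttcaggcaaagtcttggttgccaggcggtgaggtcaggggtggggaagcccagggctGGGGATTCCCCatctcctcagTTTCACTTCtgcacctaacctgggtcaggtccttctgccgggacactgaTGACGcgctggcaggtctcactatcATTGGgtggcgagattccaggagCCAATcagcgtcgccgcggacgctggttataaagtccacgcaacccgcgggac
B2m, chr2:122147437-122147686, plus strand: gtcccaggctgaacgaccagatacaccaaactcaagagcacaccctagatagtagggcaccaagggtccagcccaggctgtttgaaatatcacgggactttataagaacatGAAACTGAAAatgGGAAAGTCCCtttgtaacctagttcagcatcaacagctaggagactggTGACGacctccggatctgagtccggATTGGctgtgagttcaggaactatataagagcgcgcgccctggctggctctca

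In H2-K1 and H2-D1 the NF-kappaB match is followed by the short interferon response element, the TGACG core and 2 CCAAT boxes in the same order, and 172 of 192 aligned bases (89.6%) were identical. The NF-kappaB matches in both overlap themselves on the 2 strands. B2m holds the long interferon response element just before an NF-kappaB match, then TGACG and CCAAT. Among 27018 promoters of the same length, 6.48% held the short element, 3.03% the long element, 4.88% the NF-kappaB consensus, 17.5% the TGACG core, 34.0% the CCAAT box and 7.12% the activated site. Of the 8 members searched, 2 held the short element, 1 the long element and 3 the NF-kappaB consensus. The TGACG core was held by 5, the CCAAT box by 6 and the activated site by 1. The constitutive subunit gene Psmb6, whose log2 difference was 0.07, also held the short element and the TGACG core. Psmb5, with a log2 difference of 0.24, held the TGACG core. A match is a stretch of letters and was not tested as a binding site. Whether matches bear on the lower signals was not tested.

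**Figure D2:**
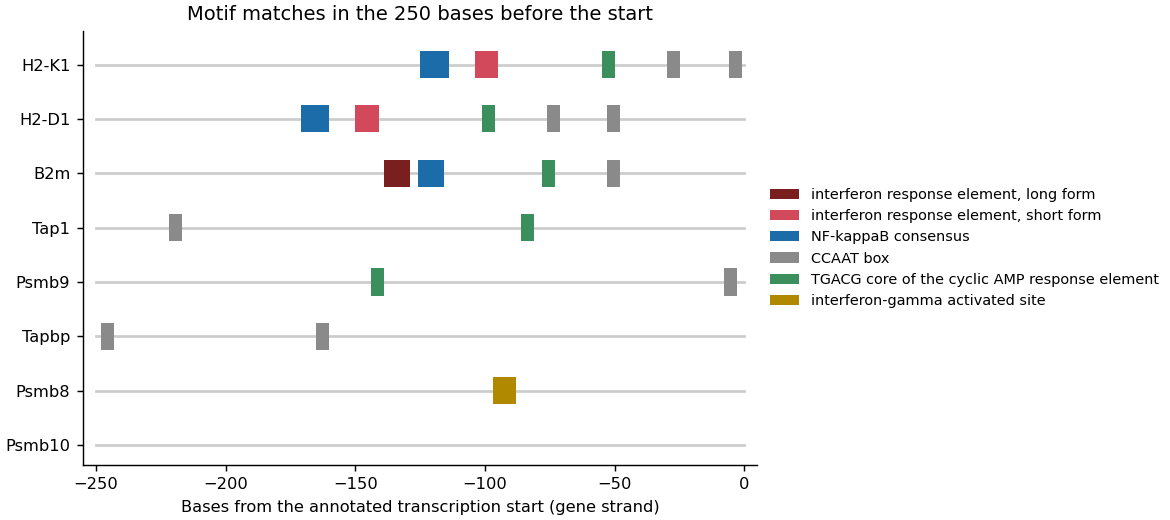
Positions of motif matches in the 250 bases before the annotated start of the 8 members with a RefSeq promoter entry, in bases from the start on the gene's strand (coloured boxes, width equal to the match). H2-K1 and H2-D1 show the same order of boxes, and Psmb10 shows none.

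H2-K1, a classical heavy chain, had signals of 1741, 2971 and 3204 in deficient arrays against 3683, 4656 and 4775 in proficient arrays of litters 1, 2 and 3. Every deficient array lay below every proficient array, which holds for 5.23% of all genes in that direction and, among the 10 members, for H2-K1 and Tap1. Its log2 difference of -0.76 had a standard error of 0.24 (litter-blocked limma fit, adjusted p = 0.186). The exact two-sided permutation test over the 6 arrays gave p = 0.1, the smallest that 3 arrays against 3 allow. All 4 H2-K1 probe sets were lower in deficient cells of all 3 litters, with log2 differences between -0.76 and -0.39.

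H2-D1, the second classical heavy chain, is covered by 9 probe sets, of which 6 passed the filter and 1 was at the floor on all arrays. Its main probe set had signals of 444, 921 and 1617 in deficient arrays against 724, 1586 and 2054 in proficient arrays. The groups overlapped, while each deficient array was below its own litter mate (log2 difference -0.59, standard error 0.22, adjusted p = 0.292 in the litter-blocked limma fit). A dimmer H2-D1 probe set, named here after its values were seen because it had the smallest p among the members' probe sets, measured 94.5, 146 and 165 in deficient arrays against 215, 259.9 and 317 in proficient arrays. It did not overlap between the groups (log2 difference -0.84, standard error 0.23, adjusted p = 0.0972 in the litter-blocked limma fit). Over both genes, 9 of the 10 probe sets above the filter were lower in all 3 litters, and none passed. In Affymetrix naming the ending _x_at marks probes that can also bind related transcripts, and 11 of these 13 H2-K1 and H2-D1 probe sets carry it. For these 11 it is uncertain which of the 2 genes or their near-identical relatives gave the signal. The dimmer H2-D1 probe set named above and the one at the floor on all arrays lack the ending. Whether these bind H2-D1 alone was not examined.

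**Figure D3:**
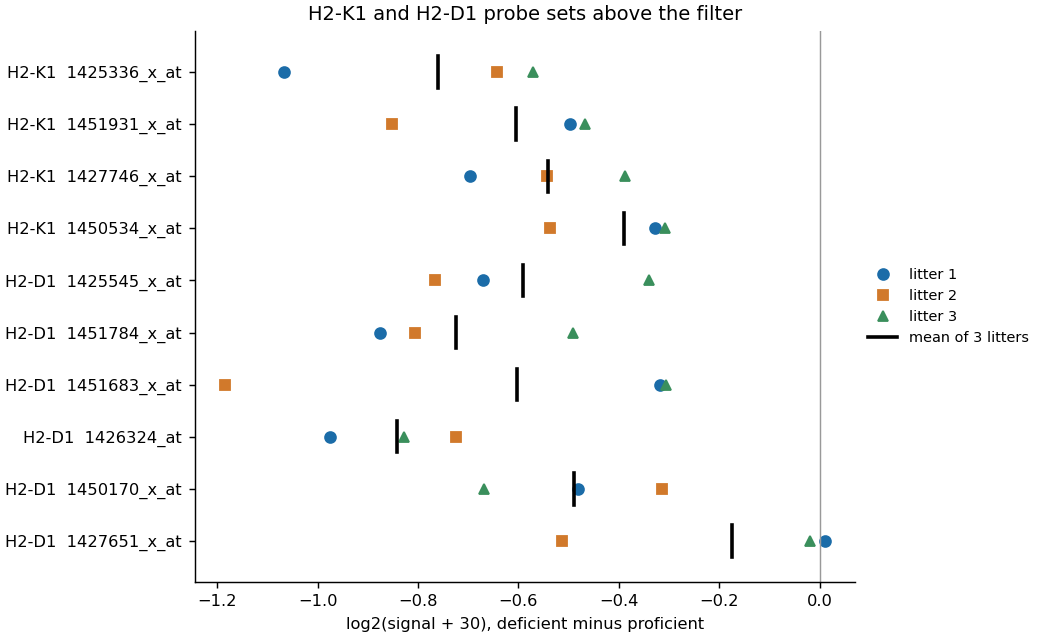
Difference in log2(signal + 30) between deficient and proficient litter mates for each H2-K1 and H2-D1 probe set above the filter (1 symbol per litter, black bar the mean of the 3 litters). Of the 30 points, 29 lie below 0; the exception is the dimmest H2-D1 probe set in litter 1, close to the floor.

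B2m, the shared light chain, was among the brightest genes, at 5359, 9612 and 6407 in deficient arrays against 5837, 11518.5 and 10505 in proficient arrays. Each deficient array lay below its litter mate, with ratios of 0.918, 0.834 and 0.610 in litters 1, 2 and 3, and the groups overlapped widely. The log2 difference of -0.36 had a standard error of 0.27 (litter-blocked limma fit, adjusted p = 0.650). It was -0.19 without litter 3 and -0.60 with quantile normalization. Its second probe set disagreed in litter 2, at 5240.2 in the deficient against 5140.5 in the proficient array, and its log2 difference was -0.17.

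Among the main probe sets, those of the transporter chains Tap1 and Tap2 had the widest differences. Tap1, which encodes the first chain of the peptide transporter, measured 146, 140.0 and 143 in deficient arrays against 180.3, 426 and 258 in proficient arrays. The deficient arrays were nearly level, with a mean of 143 ± 2.88 against 288 ± 125 (SD, n = 3 each), and the spread lay in the proficient arrays, with litter 2 highest. Its log2 difference of -0.81 had a standard error of 0.25 (litter-blocked limma fit, adjusted p = 0.160), and the exact two-sided permutation test over the 6 arrays gave p = 0.1, the smallest possible. The other 3 Tap1 probe sets gave no signal above the floor on any array. The litter values were -0.26, -1.42 and -0.74, and without litter 2 the log2 difference was -0.50.

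Tap2, the other chain of the transporter, measured 79.0, 301 and 349.6 in deficient arrays against 203, 555 and 504 in proficient arrays. The groups overlapped, and litter mates differed in the same direction each time, with ratios of 0.390, 0.543 and 0.694 (log2 difference -0.80, standard error 0.23, adjusted p = 0.121 in the litter-blocked limma fit, the smallest of the main probe sets). Tapbp, tapasin, measured 557, 491 and 1273 in deficient arrays against 1284, 992 and 891 in proficient arrays. Litters 1 and 2 showed ratios of 0.434 and 0.495, but litter 3 showed 1.43. The Tapbp log2 difference of -0.54 had a standard error of 0.27 (adjusted p = 0.457 in the litter-blocked limma fit). It was -0.24, -0.33 and -1.07 without litters 1, 2 and 3 in turn. The second Tapbp probe set rose above the floor on 1 array and did not pass the filter. The part of the control genotype of litter 3, with 1 truncated allele, was not tested.

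Tap1 and Psmb9 are neighbours read in opposite directions, with annotated starts 226 bases apart, and Psmb8 and Tap2 follow Tap1 on chromosome 17. The stretch before Tap1 is shown because it holds the whole interval between both starts. At its beginning it runs past the Psmb9 start into that gene.
Tap1, chr17:34187306-34187555, plus strand (RefSeq, GRCm38.p6): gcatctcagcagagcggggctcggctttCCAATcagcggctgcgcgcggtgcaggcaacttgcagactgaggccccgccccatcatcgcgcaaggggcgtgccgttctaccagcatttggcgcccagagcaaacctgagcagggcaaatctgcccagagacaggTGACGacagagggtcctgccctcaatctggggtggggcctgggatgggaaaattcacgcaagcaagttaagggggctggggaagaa
In it, 1 CCAAT box and 1 TGACG core matched, and neither interferon response element, the NF-kappaB consensus nor the activated site did, which says only that these letters are not in this window. Although the pair shares 225 bases of its upstream windows, the litter differences were ordered differently: Tap1 was furthest below its litter mate in litter 2 and Psmb9 in litter 3.

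The 3 interferon-inducible catalytic subunits of the proteasome were each lower in deficient cells of all 3 litters. Psmb10, which replaces Psmb7, measured 347, 2369.9 and 1388 in deficient arrays against 521, 3556 and 2155 in proficient arrays. The ratios of 0.666, 0.666 and 0.644 were the most even of any member, although the level differed several-fold between litters (log2 difference -0.58, standard error 0.22, adjusted p = 0.295 in the litter-blocked limma fit). Psmb9, which replaces Psmb6, measured 340.1, 838 and 903 in deficient arrays against 404, 1227 and 1485 in proficient arrays (log2 difference -0.49, standard error 0.22, adjusted p = 0.400 in the same fit). Psmb8, which replaces Psmb5, measured 370.1, 1909.6 and 1223 in deficient arrays against 441, 2027 and 1820.3 in proficient arrays. Its log2 difference, -0.29 (standard error 0.22, adjusted p = 0.664), was the smallest of the members, and it was -0.16 without litter 3. Its dimmer probe set was higher in the deficient array of litter 1, at 61.7 against 55.7 in its proficient litter mate. All 3 genes had their lowest signals in both arrays of litter 1, so the groups overlapped.

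The constitutive counterparts Psmb5 and Psmb6 lay higher by the fitted difference, without passing. Psmb5 measured 418, 1270.0 and 1501 in deficient arrays against 308, 1071 and 1428 in proficient arrays, higher in each litter (log2 difference 0.24, adjusted p = 0.725 in the litter-blocked limma fit). Psmb6 measured 452, 1482 and 986 in deficient arrays against 389, 1196 and 1227 in proficient arrays (log2 difference 0.07, adjusted p = 0.934), and its sign turned without litter 1 and without litter 2. Psmb7 was at or near the floor on 5 of 6 arrays and gives no measure for Psmb10, at 30, 98.8 and 40.3 in deficient arrays against 30.3, 40.8 and 38.8 in proficient arrays. The log2 difference of Psmb8 minus that of Psmb5 was -0.64, -0.32 and -0.63 in litters 1, 2 and 3. For Psmb9 minus Psmb6 these values were -0.43, -0.84 and -0.39. An exact two-sided sign-flip test over the 3 litters gave p = 0.25 for both pairs, the smallest it allows. Of 33 other proteasome subunits and assembly factors 28 were higher and 5 lower in deficient cells, their median was 0.20 on the log2 scale (0.09 without litter 1 and 0.12 with the mean over probe sets), 9 were higher in all 3 litters and none passed. Psma6, an alpha ring subunit, measured 1309, 5163 and 3452 in deficient arrays against 966, 1891 and 2275 in proficient arrays (log2 difference 0.82, adjusted p = 0.155), and the difference was 0.51 without litter 2. Pomp, a maturation factor of the proteasome, and Psma3, another alpha subunit, had log2 differences of 0.57 and 0.46 and did not pass. Across the array 12.6% of genes were higher in all 3 litters.

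**Figure D4:**
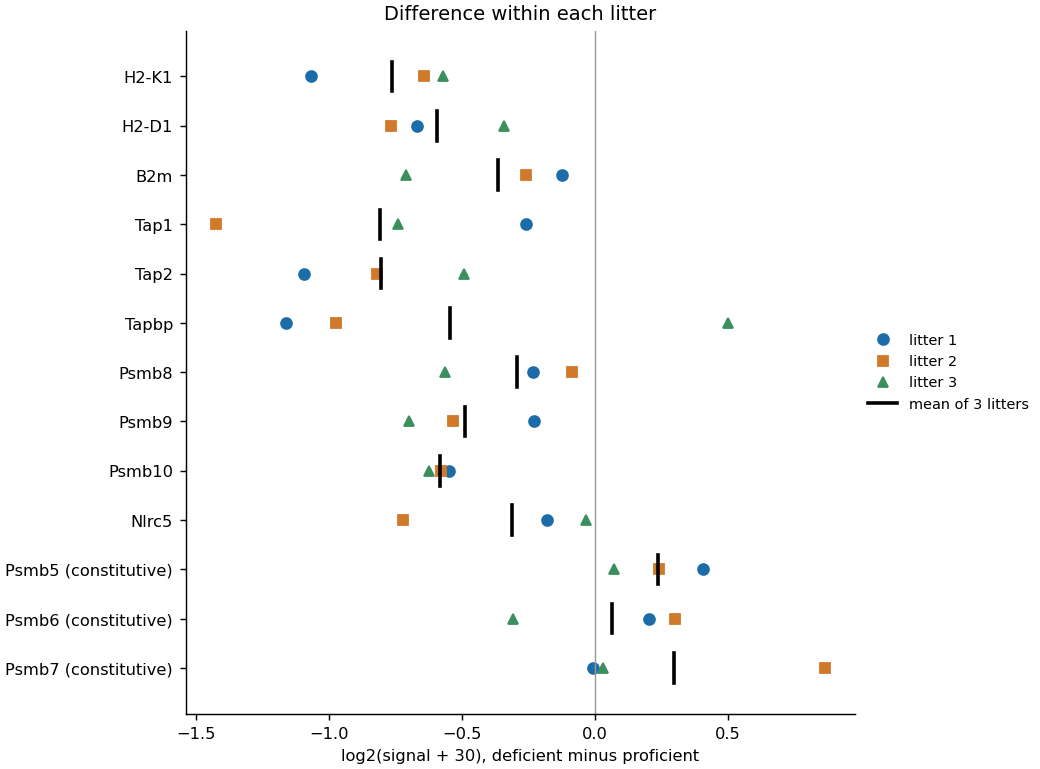
Difference in log2(signal + 30) between deficient and proficient litter mates for the main probe set of the 10 members and of the 3 constitutive subunits (1 symbol per litter, black bar the mean of the 3 litters). The members' means lie between -0.81 and -0.29, with Tapbp in litter 3 the 1 member point above 0, and the means of the constitutive subunits lie between 0.07 and 0.30, the last for Psmb7, which is near the floor.

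Nlrc5, the transactivator, measured 1299, 542 and 795 in deficient arrays against 1474, 914 and 815 in proficient arrays. It was lower in each litter, by very little in litter 3 (ratios 0.881, 0.593 and 0.976), and the groups overlapped (log2 difference -0.31, standard error 0.23, adjusted p = 0.647 in the litter-blocked limma fit). Without litter 2 its log2 difference was -0.11. Between litters it ran opposite to the proteasome subunits, with litter 1 highest for Nlrc5 and lowest for Psmb8, Psmb9 and Psmb10 in both genotypes. Among other regulators of class I genes and interferon signalling, 15 of 22 tested genes were lower and 7 higher, where 53.2% of all genes were lower. Of the 22, 7 were lower in all 3 litters, against 17.9% of all genes. Their median was -0.10 on the log2 scale, and none passed. Irf1, an interferon-induced transcription factor that acts on class I pathway promoters, measured 200.0, 294 and 272 in deficient arrays against 327, 641 and 406 in proficient arrays without overlap (log2 difference -0.74, standard error 0.22, adjusted p = 0.155 in the litter-blocked limma fit). Irf2, a related factor, measured 169.6, 129.6 and 134 in deficient arrays against 275, 268 and 178 in proficient arrays, also without overlap (log2 difference -0.62, adjusted p = 0.290). Irf9, part of the interferon-stimulated complex ISGF3, had a log2 difference of -0.56, or -0.29 without litter 2. Rfx5, a subunit of the complex that binds class I and class II promoters, had one of -0.53. Both were lower in all 3 litters. The other subunit genes of that complex, Rfxap and Rfxank, had 0.17 and -0.03 with mixed litters. Nfyb, of the same list, was higher in all 3 litters, with 0.39. The class II transactivator Ciita was near the floor, at 34.9 ± 4.22 in deficient arrays and 31.1 ± 1.85 in proficient arrays (SD, n = 3 each).

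Interferon-induced genes outside the pathway were lower in 20 of 23 tested cases, 15 in all 3 litters, and their median was -0.43 on the log2 scale. Among all genes tested 17.9% were lower in all 3 litters, and 0.493% of all probe sets passed as lower. Cxcl9 and Usp18 were the 2 higher in all 3 litters, without overlap, and did not pass. Cxcl9 measured 48.9, 90.4 and 46.9 in deficient arrays against 30, 30 and 30.5 in proficient arrays. Usp18 measured 55.9, 63.1 and 56.6 in deficient arrays against 30, 53.3 and 53.0 in proficient arrays. The 3 that fell with litter as a block were Iigp1, Xaf1 and Igtp, of which Iigp1 and Igtp encode immunity-related GTPases. Iigp1 measured 140.1, 90.9 and 73.2 in deficient arrays against 326, 567 and 149.9 in proficient arrays (log2 difference -1.39, adjusted p = 0.0119 in the litter-blocked limma fit). None of these 3 passed without a litter term, without the filter on low signal, or with any litter left out. Iigp1 and Igtp also did not pass with no variance trend, nor Igtp with quantile normalization, so that Igtp passed under 4 of 11 alternatives; its log2 difference of -1.16 was -0.70 without litter 2. This list overlaps earlier results of the same arrays.

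Of 14 peptide loading and trimming partners 10 were higher and 4 lower in deficient cells by the fitted difference, where 5088 of all 10879 genes were higher, and none passed. Only 2 of the 14 were higher in all 3 litters, and their median of 0.18 on the log2 scale was 0.11 without litter 2 and 0.07 with the mean over probe sets. Calr, calreticulin, a chaperone of the loading complex, measured 6727, 4622 and 5708 in deficient arrays against 3105, 3130.3 and 4491 in proficient arrays, without overlap, as were 2.41% of all genes in that direction (log2 difference 0.67, standard error 0.25, adjusted p = 0.299 in the litter-blocked limma fit). Canx, calnexin, and Pdia3, the disulfide isomerase of the complex, had log2 differences of 0.19 and 0.33 with mixed litters. The chaperone gene Hspa5 and the translocon subunit Sec61b had 0.41 and 0.37, also with mixed litters. Psme1, a subunit of the proteasome activator PA28, measured 752, 725 and 755 in deficient arrays against 639, 828 and 943 in proficient arrays. The activator genes Psme3 and Psme4 had log2 differences of 0.34 and -0.13, and none of the 3 passed. Of 6 other class I and class I-like genes above the filter 5 were lower, and their median was -0.33 on the log2 scale (-0.20 without litter 3 and -0.02 with no filter); 18 of the 30 on that list had no probe set of their own. Cd1d1, which presents lipids, measured 591, 610.4 and 423 in deficient arrays against 935, 793 and 847 in proficient arrays, and H2-M3, which presents formylated peptides, 155, 142 and 161 in deficient arrays against 188, 229 and 295 in proficient arrays. Both lay without overlap and did not pass (adjusted p = 0.232 and 0.371 in the litter-blocked limma fit). H2-T3, a class I-like gene, had a log2 difference of -0.44, which came from litter 3: the litter values were -0.06, 0.13 and -1.38. Class II presentation genes were mixed, 9 of 12 lower with a median of -0.14 (-0.27 without litter 1) and none that passed. Over all genes 53.2% were lower. Of the 12, 4 were lower in all 3 litters, against 17.9% of all genes. H2-Ob, a modulator of class II loading, had a log2 difference of -0.91 (adjusted p = 0.0825), the class II loading gene H2-DMa one of -0.39 and the class II chain gene H2-Aa one of 0.37.

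**Figure D5:**
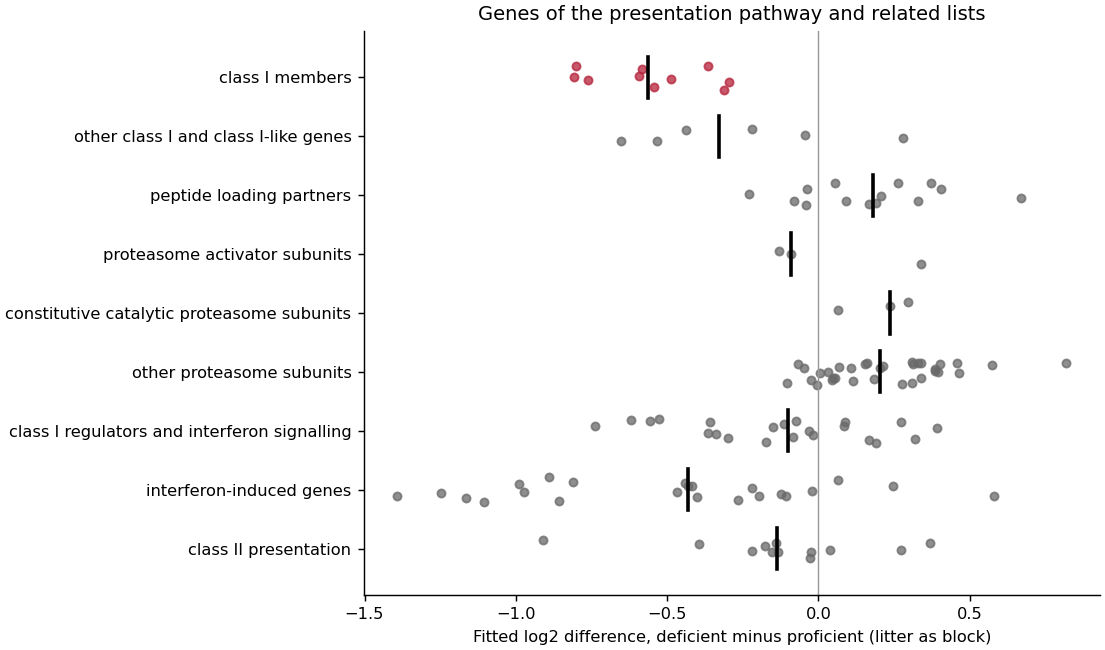
Fitted log2 difference, deficient minus proficient with litter as a block, for each tested gene (1 point per gene) of the 10 members and of 8 related lists, with the median of each list as a black bar. All member points lie below 0, the medians of the constitutive subunits, the other proteasome subunits and the peptide loading partners lie above 0 (0.24, 0.20 and 0.18, of which the first was 0.01 without litter 2), and the interferon-induced list reaches down to -1.39.

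By likeness of pattern over the 6 arrays, the genes whose log2 signals followed Tap1 most closely among 10879 were Dennd1c, Padi1, Ecscr, Tmem176b and Gnb1l, with Pearson r between 0.984 and 0.996. Of these only Tmem176b was well above the floor, at 382, 422 and 441 in deficient arrays against 476, 998 and 702 in proficient arrays. The genes closest to the average of the standardized members were Rnf114, Tbc1d14, Mitd1, Slc25a1 and Spns1, with r between 0.979 and 0.985. The arrays share litters and only 6 points entered each r, so these values are a description.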

How the data were processed

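Amplification of LSK RNA took 2 rounds before hybridisation to Affymetrix 430 2.0 mouse arrays, according to the labels' protocols. The deposited linear signal intensity comes from MAS5, per the submitters' processing notes; the sources used here give no version, scaling target or floor step, and the lowest value was 30. The depth is that of arrays: their number, 3 per group, limits the precision. Arrays of equal number are litter mates in the labels, which pairs them, and the deviations of litter mates correlated with r = 0.77, 0.67 and 0.46. Whether a sample is 1 mouse or several is not stated. With litter as a block the p-values rest on the spread of the genotype difference between the 3 litters, biological and technical together, but not on it alone. In limma the variance of each probe set is drawn toward a trend over all probe sets tested. Psmb10, with even litter values of -0.55, -0.58 and -0.62, thus had a standard error of 0.22. Tap1, with uneven values of -0.26, -1.42 and -0.74, had one of 0.25. How far single mice differ cannot be read from these p-values.

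Signals were transformed as log2(signal + 30), which understates differences of dim genes. Leaving out 64 control probe sets, the 22519 with a mean log2 value at or above the median were tested with limma 3.58.1 in R 4.3.3 (lmFit, eBayes with trend, litter as a block, Benjamini-Hochberg at 0.05). The fit code was run on data simulated under its own model, with independent noise and no floor. That run checks the code and cannot show how well the model holds for these arrays. Alternatives were the fit without the block, 2 normalizations, 2 pseudocounts, 2 filters, no trend, the mean over probe sets and each litter left out. Named genes were all members, and in the pathway lists those that passed, the 3 of largest difference and Psmb5, Psmb6 and Psmb7. The rule also covers the cell marker lists, where only some of these are named, to keep them short. Canx, Pdia3, Ciita, Rfx5, Rfxap, Rfxank, Nfyb, Cd34, Slamf1, Csf1r, Cd68, Adgre1, Cxcl9, Usp18 and the markers given as at the floor were outside this rule. They were chosen after their values were seen. The members and lists were chosen with earlier results of these data known. Promoters were matched by symbol for 8 of 10 members (not Tap2 or Nlrc5). Genes without a probe set of 1 symbol were not analysed as single genes. Class I probe sets of several symbols are described at the end.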

Additional observations from a re-analysis of the deposited data

How the results depend on the processing

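The count of members that passed was 0 in the fit with litter as a block and under all 12 alternatives, with the smallest member adjusted p at 0.0553 (H2-K1, limma, quantile normalization). The paired fit, with the replicate block, gave 177 probe sets across the array; the fit with no replicate block gave 0 (583 at an unadjusted p under 0.05), no filter 0 (1825 unadjusted), no variance trend 97, the mean over the probe sets of a gene 10, and leaving out a litter 0 to 5. Median centring gave 414, of which 189 were lower and 225 higher, against 111 lower and 66 higher without centring. The median log2 difference of the members was -0.35 with the mean over probe sets, which averages in probe sets at the floor, and between -0.64 and -0.48 without each litter. All 120 member differences kept their sign. The members lower in every litter used numbered 8 with median centring, 10 without litter 3 and 9 otherwise. Tap1 ranged from -1.08 (without litter 1) to -0.20 (mean over probe sets), and Tapbp from -1.07 to -0.24. H2-Ob passed under 2 and Psma6 under 1 of 11 alternatives. The floor hides differences of probe sets near 30.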

Other observations

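Class I probe sets whose annotation joins several genes were left out of the members and lists, since their signal cannot be given to 1 gene. Those above the filter were part of the limma fit. There were 11 of them for the H2-K1, H2-D1, H2-Q and H2-T genes, and 9 passed the filter. Of these 9, 7 were lower in deficient cells of all 3 litters, 3 did not overlap, and the median log2 difference was -0.79. Among all genes tested 17.9% were lower in all 3 litters and 5.23% lay without overlap in that direction. The probe set annotated jointly to H2-K1 and H2-D1 had -0.78 (adjusted p = 0.125 in the litter-blocked limma fit). A dim H2-T23 probe set and that of H2-T3 and H2-T18 had -0.23 and -0.38 with mixed litters. With litter as a block 3 fell, where 0.493% of all probe sets passed as lower. The probe set annotated jointly to H2-Q6 and H2-Q8 measured 687, 469.8 and 396 in deficient arrays against 1534, 1502 and 1125 in proficient arrays, without overlap (log2 difference -1.39, limma adjusted p = 0.00227). The one annotated jointly to H2-Q5 and H2-K1 measured 305, 518 and 375 in deficient arrays against 726, 1342 and 829 in proficient arrays, also without overlap (log2 difference -1.19, adjusted p = 0.00789). The one annotated jointly to H2-Q9 and H2-Q7 measured 550.4, 1058 and 509 in deficient arrays against 957, 1995 and 1457 in proficient arrays (log2 difference -1.04, adjusted p = 0.0286).

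These 3, and the joint probe sets named before them, were looked at after the values of the members were known. Without a litter term, without the filter, and with any litter left out, none of the 3 passed, and the H2-Q9 and H2-Q7 probe set also did not pass with no variance trend; the log2 differences stayed between -1.53 and -0.83 over these and the other alternatives tried for single probe sets. The H2-Q genes encode nonclassical class I molecules of the Qa region, and their transcripts resemble each other and those of H2-K1 and H2-D1 closely.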
